A study of Drosophila melanogaster with 4 samples.

Results

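Genes of the microtubule and actin cytoskeleton were followed in RNA that was precipitated together with LARK, an RNA-binding protein of Drosophila melanogaster. The set held 10 genes, of which 7 were among the 10844 genes that could be named on the array. The proteins that bind the cytoskeleton were futsch, Jupiter and Moe. The genes of the filaments themselves were the tubulins alphaTub84B, alphaTub84D, betaTub56D, betaTub60D and betaTub97EF and the actins Act5C and Act42A. Members were looked up by symbol in the array annotation, without its control probe sets, which named 6 of them. Jupiter was named through the targets that the study listed, so 7 of the 10 had a probe set, 11 probe sets in all. For alphaTub84B, Act5C and Act42A no probe set could be named, so the actins have no measurement here. They are therefore absent from every comparison between filament genes and binding proteins that follows.

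The samples were lysates of hand-dissected brains of pharate adults, the stage at which the fly is formed but still inside its pupal case. The brains came from wild-type Canton-S flies and were dissected during the day. Each of 2 experiments used about 1000 pooled brains and gave 1 LARK IP sample, precipitated with an affinity-purified antibody to LARK under mild washing, and 1 total RNA sample saved from the same lysate. Control precipitations without the LARK antibody were not analysed here. The 4 samples were hybridised to 1 array each, so both groups hold 2 arrays, and the replicate number marks the lysate.

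Microtubules are hollow filaments of alpha and beta tubulin that run along axons and serve as tracks for transport. Actin filaments lie mainly beneath the plasma membrane. Proteins that bind along microtubules influence how stable they are, and proteins of the ezrin, radixin and moesin family tie actin filaments to the membrane. Mature neurons depend on both systems for the shape of axons and synapses.

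Values are MAS5 signals, each array scaled to the same target intensity, so a signal is relative to the whole of its array and does not show how much RNA was precipitated. In tissue RNA, fewer cells that express a gene and less of its RNA per cell cannot be told apart. Median signals were 2.7 to 2.8 on the 4 arrays. A background level of 10.06 was taken from genes of eggshell, salivary glue and accessory gland proteins, and 13.3% to 14.1% of probe sets lay above it on an array. Ratios set each LARK IP against total RNA of its lysate, on log2(signal + 0.8), a scale that understates the changes of low signals. The test was limma with the lysate as a block over the 3492 brightest probe sets, with Benjamini-Hochberg adjustment at 0.05.

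The members that bind the cytoskeleton were higher in LARK IP than in total RNA, and the tubulins were not called in either direction. Moe, Jupiter and futsch had log2 ratios of 2.02, 1.98 and 1.44, while the tested tubulin probe sets lay between -1.48 and 0.40. Of the 11 member probe sets 7, from 6 genes, were bright enough to be tested. Among these 7, 3 were called higher and 0 lower, where 2.69% of all tested probe sets were called higher and 0.172% lower. The other 4 lay at or under background on every array. Members were chosen with earlier results of these data known, so the member counts here and below describe them and are not independent evidence.

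Moe (CG10701) encodes moesin, the only ezrin, radixin and moesin protein of the fly, which links cortical actin to the plasma membrane. Its probe set 141790_at read 15.8 and 54.4 in LARK IP 1 and 2, against 3.1 and 13.4 in total RNA 1 and 2. Both IP signals were above both total RNA signals, as was the case for 15.4% of tested probe sets. The second lysate was the brighter one in both groups, by 3.44 times in IP and 4.32 times in total RNA. The log2 ratios were 2.09 and 1.96, a mean of 2.02 ± 0.09 (SD, n = 2; adjusted p = 0.0170). The signal of 3.1 lies under background, so the ratio in the first lysate can be read only as a bound. Set against the lowest signal above background on that array, Moe was at least 1.56-fold higher there. The mean ratio was 2.19 without a pseudocount and 1.69 with 4 times it.

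Jupiter (CG31363) encodes a microtubule-associated protein that binds along the filament. The array annotation gave no symbol for its probe set, 154007_at, which was named here through the targets the study listed, as CG17238, an older name of Jupiter. As that list was chosen for enrichment on these arrays, the values describe the gene and are not independent evidence of its direction. Signals were 40.9 and 36.6 in LARK IP, against 7.7 and 11 in total RNA. Both IP signals lay well above both total RNA signals, of which 1 was under background. The log2 ratios were 2.29 and 1.66, with a mean of 1.98 ± 0.45 (SD, n = 2; adjusted p = 0.0153). Jupiter differed least between the lysates of the binding proteins, by 0.895 times in IP and 1.43 times in total RNA. Without Jupiter, 2 of 6 tested member probe sets were called, beside 2.69% of all tested probe sets. The probe set of futsch, 1 of these 2, is on the same list, so this count is not independent of it either.

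The third binding protein, futsch (CG34387), is a large microtubule-associated protein of axons and dendrites, related to the MAP1B protein of mammals. Its probe set 153032_at read 45.3 and 95.9 in LARK IP, against 10.6 and 52.3 in total RNA. All 4 signals were above background and the groups overlapped, because total RNA 2 exceeded LARK IP 1. Total RNA differed 4.93 times between the lysates. The log2 ratio was 2.02 in the first lysate and 0.86 in the second, a mean of 1.44 ± 0.81 (SD, n = 2; adjusted p = 0.0470). Without total RNA 1 the ratio, then not paired by lysate, was 0.33, and without total RNA 2 it was 2.55. The call was also lost without a pseudocount (1.49, adjusted p = 0.0629) and among the brightest 15% of probe sets (adjusted p = 0.0739).

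The gene name of this probe set is less certain than that of Moe. The array annotation assigned 153032_at to futsch, but the study listed it as CG14775, a name that the RefSeq gene table used here does not hold. The further probe sets annotated to futsch gave no signal that could be read. Probe set 144060_at had 1.3 and 0.9 in LARK IP against 1.1 and 0.6 in total RNA. Probe set 144381_at had 0.6 and 0.3 in LARK IP against 0.3 and 0.7 in total RNA. The enrichment of futsch thus rests on 1 of its 3 probe sets.

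**Figure D1:**
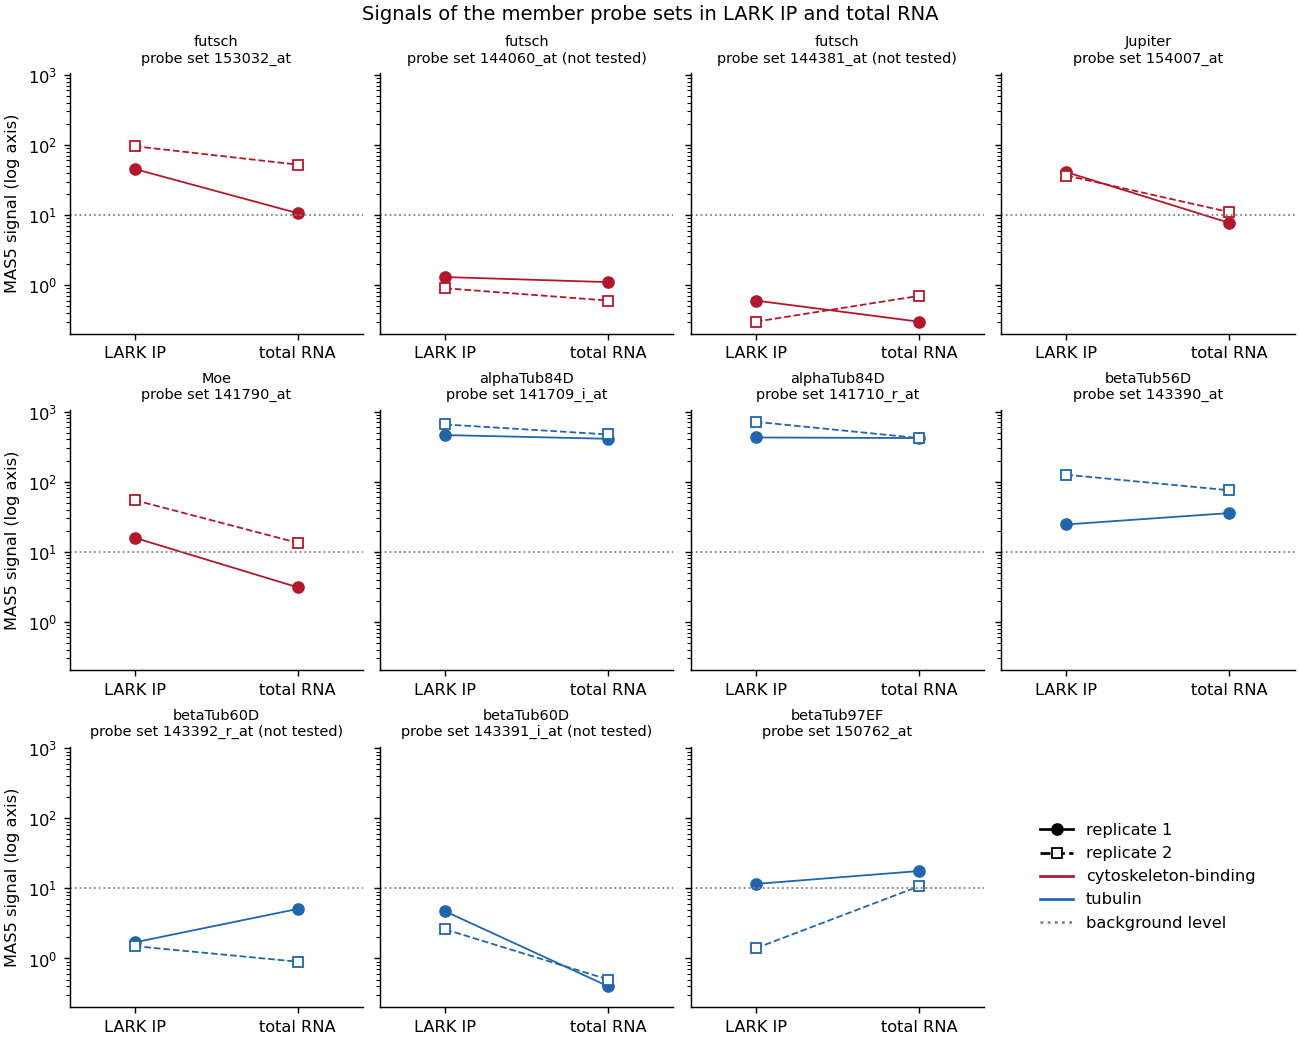
MAS5 signal (log axis) of each of the 11 member probe sets in LARK IP (left) and total RNA (right), where a line joins the samples of 1 lysate (filled circles replicate 1, open squares replicate 2) and the dotted line is the background level of 10.06. Moe and Jupiter slope down from IP to total RNA in both lysates, alphaTub84D is nearly level in the first lysate, and 4 probe sets of futsch and betaTub60D lie under background throughout.

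A ratio of at least 2 in both lysates, counted on plain signals, was seen for 2 of the 7 tested member probe sets, those of Moe and Jupiter, against 3.87% of all tested probe sets. For futsch the ratios were 4.27 and 1.83. In the first lysate Moe and Jupiter had total RNA signals under background. With these raised to the lowest signal above background, 1 of the 7 was left, Jupiter with at least 4.05-fold and then 3.33-fold, while Moe had at least 1.56-fold and then 4.06-fold. Ordered by ratio among the 3492 tested probe sets, Moe stood at place 43, Jupiter at 48 and futsch at 128, where the places of Moe and Jupiter rest in part on those dim signals. In the second lysate alone futsch was at place 406.

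Alpha tubulin was far above background in both groups. alphaTub84D (CG2512) encodes a broadly expressed alpha tubulin that is nearly identical to the product of alphaTub84B, so a part of its signal could come from that gene. Its probe set 141709_i_at read 462.3 and 655.1 in LARK IP, against 408.9 and 471.5 in total RNA. The groups overlapped. The 95% interval of the log2 ratio, 0.33 ± 0.21 (SD, n = 2; adjusted p = 0.618), was -0.16 to 0.81. The other probe set, 141710_r_at, had 427.1 and 714.0 in LARK IP, against 418.3 and 418.9 in total RNA. Here both IP signals were above both total RNA signals, the first by 1.02 times, and the log2 ratio was 0.40 ± 0.52 (adjusted p = 0.569; 95% interval -0.15 to 0.95). Both intervals end below a doubling in LARK IP, but they rest on 2 lysates and on a spread borrowed from other probe sets. On its own, the spread between 2 lysates is too uncertain to exclude one.

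The beta tubulins varied more. betaTub56D (CG9277), the main beta tubulin of most fly tissues, read 24.5 and 125.5 in LARK IP, against 35.6 and 75.3 in total RNA. The lysates went opposite ways, with log2 ratios of -0.52 and 0.73, and IP differed 5.12 times between its own arrays. The mean was 0.10 ± 0.89 (SD, n = 2; adjusted p = 0.960; 95% interval -0.60 to 0.80). It changed sign under quantile normalization (-0.09) and without LARK IP 2 (-1.06) or total RNA 1 (-0.43), where the latter 2 values are not paired by lysate.

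betaTub97EF (CG4869), another beta tubulin, read 11.6 and 1.4 in LARK IP, against 17.7 and 10.7 in total RNA. It was the lower one in IP in both lysates, by log2 ratios of -0.58 and -2.39, and LARK IP 2 alone was under background. The mean of -1.48 ± 1.28 did not pass (adjusted p = 0.267), and it was -0.23, not paired by lysate, without LARK IP 2. Its 95% interval, not adjusted for the number of probe sets, was -2.68 to -0.28. By mean ratio it stood at place 3476 of 3492. Both rest in part on the LARK IP 2 signal under background. With that signal raised to the lowest one above background, it was at least 1.06-fold lower in LARK IP in the second lysate.

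betaTub60D (CG3401), a beta tubulin known from differentiating tissues, was under background on every array, and its probe sets did not run the same way. Probe set 143391_i_at had 4.7 and 2.6 in LARK IP against 0.4 and 0.5 in total RNA, and 143392_r_at had 1.7 and 1.5 in LARK IP against 5.1 and 0.9. No fold is given for either.

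**Figure D2:**
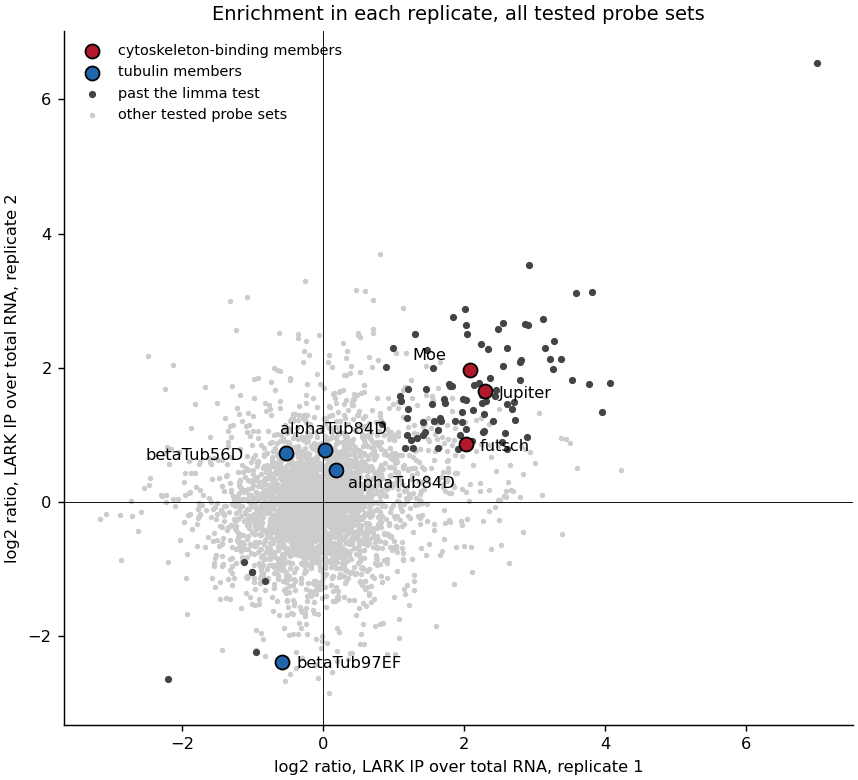
Log2 ratio of LARK IP over total RNA in replicate 1 (horizontal axis) and replicate 2 (vertical axis) for the 3492 tested probe sets, with those past the limma test in dark grey, the binding proteins in red and the tubulins in blue. Moe, Jupiter and futsch lie at the upper right, alphaTub84D and betaTub56D near the middle, and betaTub97EF low with -2.39 in replicate 2, where its IP signal was under background.

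Set side by side, the binding proteins had a median log2 ratio of 2.09 in the first lysate and 1.66 in the second, against -0.55 and 0.45 for the 4 measured tubulins (1 probe set a gene). Over both lysates the medians were 1.98 for the binding proteins and -0.15 for the tubulins, and -0.04 for all tested probe sets. These tubulin medians include betaTub60D by its brighter probe set 143392_r_at, which was under background on every array. Without betaTub60D, left out after seeing its signals, the tubulin median over both lysates was 0.10. In the first lysate the lowest binding protein, futsch at 2.02, lay far above the highest tested tubulin, alphaTub84D at 0.18. With its total RNA signal raised as above, Moe would stand at 0.65 there. In the second the gap was small, with futsch at 0.86 and a probe set of alphaTub84D at 0.77. With 2 lysates and members chosen with results in view, the difference between these classes was not tested.

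The calls of the binding proteins rest on the pairing by lysate and on a spread borrowed from other probe sets. Without the replicate block limma called none of them (adjusted p of 0.941 for Moe, 0.460 for Jupiter and 0.950 for futsch), and an exact permutation test of 2 arrays against 2 could not go below p = 0.33, two-sided. Without the block 0 of all tested probe sets were called higher and 0 lower, so the lost calls are not particular to the members. Fits with 1 array left out also dropped the block and kept 1 array in a group. Their calls therefore cannot tell the members from other probe sets, and only their ratios are given here. Ratios with 1 array left out compare the means of the remaining arrays of each group and are not paired by lysate. They so also take in the brightness difference between lysates, for Moe 3.44 times in IP and 4.32 times in total RNA. For Moe they ran from 1.09 to 2.96, with 1.16 without LARK IP 2 and 1.09 without total RNA 1. Its paired ratios were 2.09 and 1.96. For Jupiter the unpaired ratios ran from 1.74 to 2.22.

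**Figure D3:**
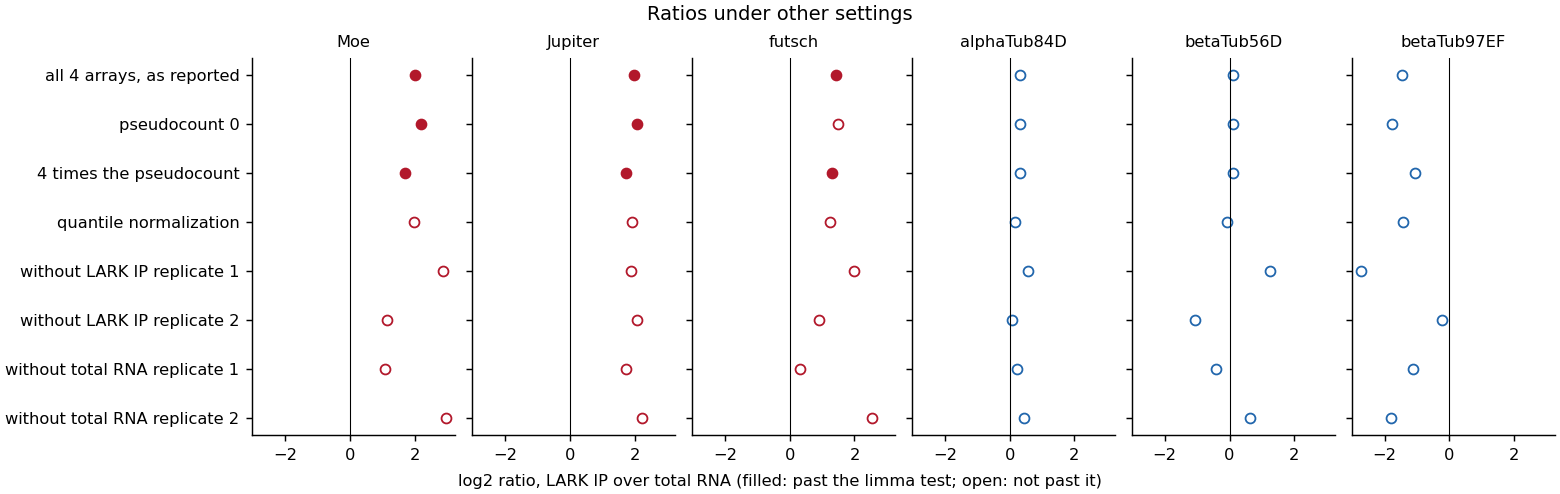
Log2 ratio of LARK IP over total RNA for 6 members (1 probe set each) under the reported setting and under other pseudocounts, quantile normalization and with 1 array left out, filled where limma called the gene and open where it did not. With 1 array left out the ratios are not paired by lysate. Jupiter, which differed least between the lysates of the binding proteins, then runs from 1.74 to 2.22, futsch runs from 0.33 to 2.55, and betaTub56D falls on both sides of 0.

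The other genes of the cytoskeleton showed no call. Of 107 listed genes with roles in microtubules, motors, membrane linkage and actin filaments, 77 had a probe set and 41 were tested. None passed in limma in either direction. At an unadjusted p under 0.05 there was 1 higher and there were 4 lower, beside 7.82% and 4.18% of all tested probe sets, and 0 were at least 2-fold higher in both lysates. At the 2.69% of all probe sets that were called higher, few calls could be looked for among 41. Their log2 ratios had a median of -0.09, ran from -1.16 to 1.14, and 17 of the 41 were above 0. These counts leave out the listed genes too dim to be tested. Some of those, under background on all arrays, differed at least 2-fold in both lysates, Map205 upward and Dys downward among them.

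Of the tubulins outside the members that had a probe set, alphaTub85E alone was above background. It had 15.2 and 15.7 in LARK IP against 19.0 and 16.9 in total RNA, and its log2 ratio was -0.20 ± 0.15 (adjusted p = 0.872). Its probe set belongs to the kind that reads several members of a sequence family. Both IP signals were below both total RNA signals, as for 17.4% of tested probe sets. betaTub85D, the beta tubulin of the testis, was under background on all arrays, with 4.9 and 6.2 in LARK IP against 9.0 and 7.0 in total RNA. Among actins, Act79B, Act87E and Act88F of muscle were too dim to be tested. Act87E had 5.8 and 1.3 in LARK IP against 15.4 and 2.3 in total RNA, and its single signal above background was in total RNA 1.

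The 6 tested microtubule-binding proteins other than futsch and Jupiter had a median log2 ratio of 0.05, and ran from -0.33 to 0.78. Patronin, which protects microtubule minus ends, read 9.7 and 5.8 in LARK IP against 3.2 and 5.1 in total RNA, all under background in its brightest probe set. Tbce, a tubulin-folding cofactor, read 11.8 and 7.3 in LARK IP against 9.7 and 4.0 in total RNA. Its IP signals straddled the background level. CLIP-190, a protein of growing microtubule ends, had -0.33 ± 0.65 (adjusted p = 0.778), with the lysates going opposite ways. Map60 had 7.5 and 9.4 in LARK IP against 14.7 and 7.5 in total RNA, where only total RNA 1 was above background. The brighter of 2 probe sets of the axonal protein tau was too dim to be tested, with 6.6 and 0.3 in LARK IP against 0.5 and 0.3 in total RNA.

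Among 11 tested motor and dynactin genes the median was -0.15. Dlic, the light intermediate chain of cytoplasmic dynein, came nearest to the binding proteins, with 18.9 and 19.3 in LARK IP against 6.2 and 10.9 in total RNA. Both IP signals were above both total RNA signals, and its log2 ratio of 1.14 ± 0.50 did not pass (adjusted p = 0.212). Total RNA 1 was under background, so the ratio of Dlic in the first lysate can be read only as a bound. Other subunits of the same motor lay elsewhere. The dynein heavy chain Dhc64C read 40.3 and 11.9 in LARK IP against 53.8 and 19.8 in total RNA, a ratio of -0.55 ± 0.20 (adjusted p = 0.465). The dynactin subunit DCTN2-p50 had 0.48 ± 0.60 (adjusted p = 0.741), with total RNA 2 under background at 5.3. The kinesin light chain Klc was under background on all arrays, with 5.3 and 3.4 in LARK IP against 9.0 and 7.3 in total RNA.

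Proteins that link the membrane to the cytoskeleton, as Moe does, did not share its ratio. The median over 7 tested genes was 0.05. At an unadjusted limma p under 0.05, 3 of the 7 were lower in LARK IP, beside 4.18% of all tested probe sets. These were rhea, Ank and alpha-Cat. Mer, the fly merlin and the closest relative of Moe in the list, had 8.4 and 11.4 in LARK IP against 8.1 and 4.5 in total RNA, a difference mainly of the second lysate. It did not pass (adjusted p = 0.677), and no fold is given, as both total RNA signals were under background. beta-Spec, a spectrin of the submembrane network, was bright and nearly equal in both groups, with 74.5 and 46.7 in LARK IP against 72.2 and 44.9 in total RNA. The brighter probe set of rhea, also above background on all arrays, had 33.1 and 58.3 in LARK IP against 56.8 and 74.8 in total RNA. Its log2 ratio was -0.56 ± 0.29 (adjusted p = 0.381). The ankyrin gene Ank had 20.2 and 16.3 in LARK IP against 23.8 and 44.2 in total RNA, a ratio of -0.81 ± 0.83 (adjusted p = 0.372). alpha-Cat, the actin-linking catenin of cell junctions, was under background in IP at 8.4 and 7.4 and above it in total RNA at 13.5 and 17.2. It was at least 1.51-fold lower in LARK IP, measured against the lowest signals above background, and did not pass (adjusted p = 0.394). The brightest of several probe sets of Ank2 was under background on all arrays, with 6.9 and 5.2 in LARK IP against 7.0 and 3.5 in total RNA.

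Of 15 tested regulators of actin filaments the median was -0.07. cpa, the alpha subunit of the protein that caps filament ends, had 9.5 and 17.3 in LARK IP against 29.2 and 24.2 in total RNA. Its ratio was -1.0 ± 0.76 (adjusted p = 0.259). LARK IP 1 was under background, so the ratio of cpa in the first lysate can be read only as a bound. Its partner subunit cpb read 11.4 and 6.8 in LARK IP against 6.6 and 4.1 in total RNA, and both total RNA signals were under background (adjusted p = 0.635). Arpc1, a subunit of the complex that branches filaments, had 5.8 and 11 in LARK IP against 37.5 and 9.4 in total RNA. LARK IP 1 and total RNA 2 of Arpc1 were under background. Its ratio of -1.16 ± 1.94 (adjusted p = 0.482) came from the first lysate alone, and a second probe set, under background throughout, had 5.6 and 9.5 in LARK IP against 7.4 and 5.0 in total RNA. The alpha-actinin gene Actn read 9.4 and 11.5 in LARK IP against 8.5 and 5.2 in total RNA, and 1 IP signal was above background (adjusted p = 0.677).

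**Figure D4:**
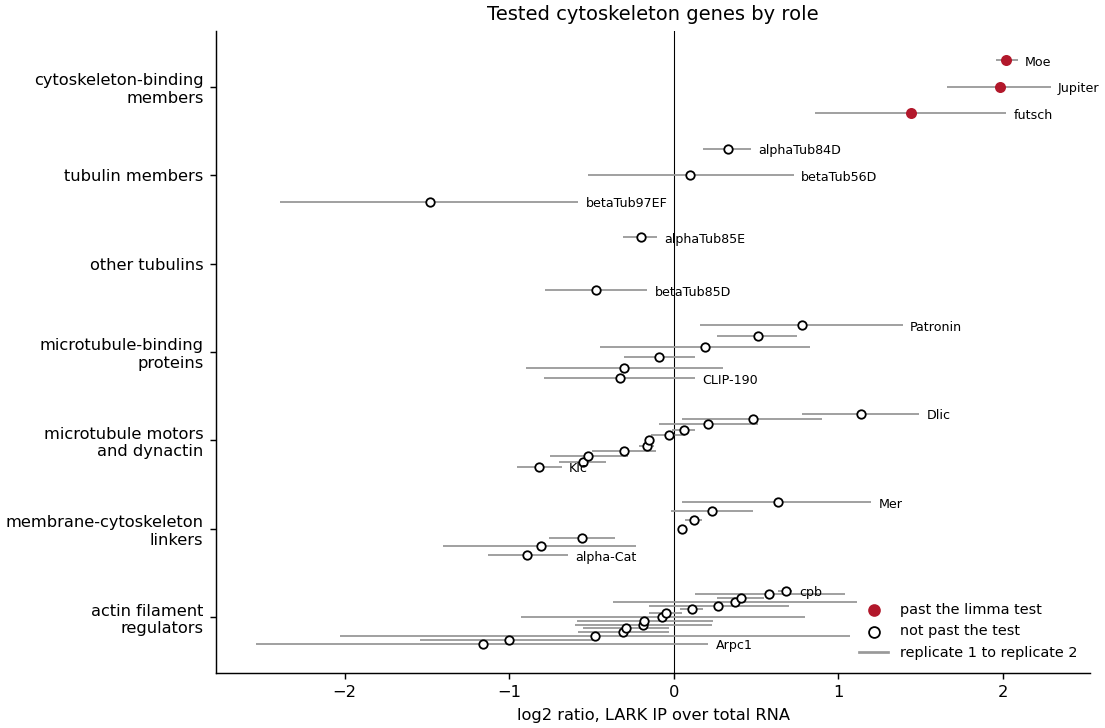
Log2 ratio of LARK IP over total RNA for the tested members and further cytoskeleton genes, grouped by role, where points are means of both lysates (red past the limma test, open not past it) and grey lines join replicate 1 and replicate 2. Apart from Moe, Jupiter and futsch no gene is red, and the gene nearest to them is Dlic at 1.14, with its total RNA 1 signal under background.

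The genes whose signals over the 4 arrays were most like those of the binding proteins were sought among 2884 named genes, by Euclidean distance of log2 signals centred on each gene's mean. For Moe these were Vmat, a vesicular monoamine transporter (distance 0.38), the metalloprotease gene kuz (0.38) and CG2926 (0.41). For Jupiter they were rgn (0.13), CG3168 (0.35) and CG14191 (0.38), of which rgn had 68.3 and 68.5 in LARK IP against 14.8 and 19.9 in total RNA. For futsch they were flw, a catalytic subunit of protein phosphatase 1 (0.27), Reph (0.27) and Usp10 (0.34). With 4 arrays this is a description only.

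The summed signal of neuronal markers was higher in LARK IP, mostly through nrv3. Of 8 listed genes 7 had a probe set, and their summed signal was 226.3 and 247.5 in LARK IP against 60.4 and 138.5 in total RNA. Most of it was nrv3, a sodium pump subunit of neurons, with 182.1 and 176.9 in LARK IP against 37.1 and 85.8 in total RNA. Without nrv3 the sums were 44.2 and 70.6 in LARK IP against 23.3 and 52.7 in total RNA. These sums overlap across lysates but were higher in LARK IP within each lysate. Both brp and Appl were under background on all arrays. In both lysates fne was also higher in IP, with 19.3 and 24.6 in LARK IP against 5.1 and 12.4 in total RNA. The same held for elav, with 7.0 and 12.7 against 1.5 and 7.2, under background except in LARK IP 2. The markers did not run 1 way. Rbp9, an RNA-binding protein of neurons, had 7.1 and 15 in LARK IP against 8.1 and 26.1 in total RNA. For nSyb and brp the lysates went opposite ways. The 6 measured glial markers summed to 155.4 and 113.9 in LARK IP against 119.5 and 109.4 in total RNA, with nrv2, Gs2 and repo above background on all arrays. Markers of other tissues were low. The 11 measured muscle markers summed to 72.3 and 57.1 in LARK IP against 80.8 and 45.8 in total RNA, with 9 of 11 under background everywhere. Fat body markers summed to 21.8 and 20.4 in LARK IP against 23.8 and 36.8 in total RNA, and haemocyte markers to 31.2 and 29.7 against 45.3 and 28.7. The part of the neuronal markers in the enrichment of the binding proteins was not tested.

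The signals of transcript ends also moved with the groups. The array carries control probe sets for the 3′ and 5′ ends of an actin, eIF-4a and GAPDH. The 3′ over 5′ ratio of eIF-4a was 63.2 and 56.1 in LARK IP against 37.1 and 36.0 in total RNA. For the actin control it was 44.4 and 55.7 in LARK IP against 16.0 and 6.69 in total RNA, and for GAPDH 18.6 and 242.0 in LARK IP against 9.53 and 8.86 in total RNA. All 3 ratios were higher in both IP arrays, although the 5′ signals were mostly under background, GAPDH in total RNA 1 alone excepted. The 3′ signal of the actin control was 22.2 and 16.7 in LARK IP against 17.6 and 17.4 in total RNA. The part of these end ratios in the ratios of the members was not tested.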

How the data were processed

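The authors hybridised RNA of LARK IP and total RNA, about equal amounts of each, to Affymetrix Drosophila arrays and deposited MAS5 signal intensities, scaled on each array to 1 target intensity. The table held 14010 probe sets, 44 of them controls, and gene symbols came from the platform annotation (1 symbol for 12442, several for 327, none for 1197). Jupiter was named from rows of the study's target list that give both experiments, where 4 of 61 names that could be compared differed from the annotation.

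The pseudocount of 0.8 was the median over arrays of the 25th percentile signal. The 25% of probe sets with the highest mean log2 signal entered limma version 3.58.1 under R 4.3.3. Its lmFit and eBayes were run with the variance trend on, and p-values were adjusted by Benjamini-Hochberg over all 3492. IP and total RNA of 1 number came from 1 lysate by the series description, so the number was a block. The differences between IP arrays and between total RNA arrays correlated (r = 0.361 over the tested probe sets). The 2 hybridisation days coincided with the replicate numbers, so each lysate's ratio is within 1 day. Precision is limited by the number of arrays, as 1 residual degree of freedom was left per probe set (prior degrees of freedom 7.84). The background level was the 95th percentile of the signals of 25 genes of eggshell, glue and accessory gland proteins. The fit was also run on simulated data with the same spread for all probe sets, which does not show how it behaves at dim signals. No result here rests on that run. Sequence features of the members were not analysed here.

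Members and gene lists were chosen with earlier results of these data known. Named besides the members are, in each list, genes past the test or else the 2 highest and 2 lowest tested, 1 probe set a gene, with the brightest probe set used. The signals of tau, beta-Spec, rhea, the muscle actins and the control probe sets were named in addition, after their values were seen. Alternatives covered the pseudocount, filter, normalization, block, variance trend and each array left out.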

Additional observations from a re-analysis of the deposited data

How the results depend on the processing

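Over all tested probe sets 94 were higher and 6 lower in LARK IP. With quantile normalization the counts were 12 and 0, with no variance trend 1 and 0, and without the replicate block 0 and 0 (limma at an unadjusted p under 0.05: 137 higher, 38 lower). With 1 array left out, fitted without the block, the counts were 0 to 0 in both directions (46 to 226 higher and 19 to 72 lower before adjustment). The 6 lower calls became 2 without a pseudocount, 16 with 4 times it and 0 among the brightest 15%. The count of further cytoskeleton genes called was 0 in either direction under all 11 alternatives. The median log2 ratio of the binding proteins, 1.98, was 1.44 over all their probe sets, of which 2 of futsch were under background, and 1.09 to 2.55 with 1 array left out. It was 1.73 without Jupiter, an alternative chosen after seeing the data. The tubulin median of -0.15 ran from -0.44 to 0.06 with 1 array left out and was 0.21 over all probe sets. The ratio of betaTub56D was -0.09 under quantile normalization and -1.06 to 1.26 with 1 array left out. Ratios and medians with 1 array left out are not paired by lysate. Moe and Jupiter kept their calls with both other pseudocounts, with no filter and among the brightest 15%, and missed the threshold under quantile normalization (adjusted p = 0.0599 for both) and without the variance trend (adjusted p = 0.216 for Moe and 0.243 for Jupiter), and each lost its call in 7 of 11 alternatives. The call of futsch held with 4 times the pseudocount and with no filter, and was lost in the other 9 of 11 alternatives. Filter, block and variance trend cannot change the medians. betaTub97EF was not among the brightest 15%, and no hybridisation day other than the replicate number could be fitted as a block. The cause of these changes was not tested. Signals near or under background, as in total RNA for Moe and Jupiter, limit the size of their ratios.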
